A study of Mus musculus with 12 samples.

Results

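The genes of glycolysis, the pentose phosphate pathway and the response to low oxygen were examined as a group of 34 genes, which were taken by name from the 24439 gene names listed for each RNA-Seq library. They are 2 glucose transporters, 10 enzymes of upper glycolysis, 6 of lower glycolysis, 4 genes for making and exporting lactate, 4 of the pyruvate dehydrogenase step, 5 of the pentose phosphate pathway and 3 of the hypoxia response. They were taken for their function, with earlier results of these data known. All 34 were among the 12442 genes that were kept for having more than 1 TPM (a level scaled for gene length and then to the same sum in every library) in at least 1 library.

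Glycolysis splits glucose into pyruvate in the cytosol, and proliferating cells reduce much of that pyruvate to lactate and export it. Activated T cells are known for a high rate of this pathway, which IL-2 and T cell receptor signals are known to raise through the kinases AKT and mTOR and the factors MYC and HIF-1. The pentose phosphate pathway branches off after the first step and provides NADPH and the ribose of nucleotides. HIF-1α, the oxygen-regulated factor encoded by *Hif1a*, binds the promoters of many glycolytic genes, also in T cells with normal oxygen.

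All cells were CD4 T cells purified on beads from the spleens of C57BL/6 mice of the C42 line, which carries a transgene of a human genomic fragment with the *IL3* and *CSF2* genes. They were turned into T blasts with 2 µg/ml concanavalin A for 40 h, grown in 50 U/ml IL-2 (for 30 h by the methods, 2 days by the labels), and then kept for 16 h with IL-2 (TB IL-2) or without it (TB IL-2nil). Cells of either kind were also given 20 ng/ml PMA with 2 µM of the calcium ionophore A23187 for 2 h (PMA/I), agents that bypass the T cell receptor (TB+ IL-2 and TB+ IL-2nil). Each of the 4 groups holds 3 libraries, and whether these came from separate mice or cultures is not stated in the labels, so that P-values measure the spread between these libraries.

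The placement of 2 libraries bears on every value. The library labelled TB IL-2nil replicate 3 and the one labelled TB+ IL-2 replicate 3 match each other's columns in the study's published expression table. After quantile normalization of the deposited values, the match was within 0.1% over 1381 genes. Both libraries were placed here as in that table. The fits by the labels and without both of these doubtful libraries stand beside the results. For these and all other alternative fits below (other scalings, the replicate block and left-out libraries) the shares of all genes that passed were not counted. Counts from those fits therefore stand without that background. By the labels, 0 of the 34 genes passed the adjusted P in any comparison (limma, with 4 genes at an unadjusted P under 0.05 for IL-2 in resting cells, 6 for IL-2 in stimulated cells, 2 for PMA/I with IL-2, 13 for PMA/I without IL-2 and 0 for their interaction). In each set of 3 values below, the order is that of replicates 1, 2 and 3, so that the third TB IL-2nil value is from the library labelled TB+ IL-2 replicate 3, and the third TB+ IL-2 value from the library labelled TB IL-2nil replicate 3.

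The deposited values were FPKM with no read counts, so the depth behind a value is unknown. The 6 marker genes of CD4 T cells summed to 1840 to 2620 TPM in all 12 libraries, and the markers of NK cells to at most 0.303 TPM. The 4 B cell markers were all detected and summed to 23.2 to 29.6 TPM in TB IL-2nil, 5.94 to 10.4 in TB IL-2, 5.49 to 12.7 in TB+ IL-2nil and 2.36 to 3.31 in TB+ IL-2. The 5 myeloid markers summed to 1.74 to 4.88 TPM, the 2 CD8 markers to 6.91 to 31.9 TPM and the red cell markers to 0.183 to 13.2 TPM. The B cell sum moves with IL-2 and PMA/I, and its part in the results below was not tested. Short non-coding RNAs took 16.6 to 53.2% of the FPKM of a library. In bulk RNA, fewer cells of a type and less RNA per cell cannot be told apart.

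With IL-2, glycolysis took a larger share of the transcriptome. Leaving the short RNAs out of the total, the 34 genes together held 1.17 to 1.77% of the summed level in TB IL-2 and 1.24 to 1.73% in TB+ IL-2, against 0.474 to 0.76% in TB IL-2nil and 0.669 to 0.909% in TB+ IL-2nil. As placed here, the libraries with and without IL-2 did not overlap in this share, before or after PMA/I. By the labels they overlapped in both states, with the library labelled TB IL-2nil replicate 3 at 1.52% and that labelled TB+ IL-2 replicate 3 at 0.633%. *Aldoa*, *Tpi1*, *Gapdh*, *Pgk1*, *Pgam1*, *Eno1*, *Pkm* and *Ldha* made up most of the share of the 34 genes, at 0.964 to 1.53% in TB IL-2 and 0.309 to 0.589% in TB IL-2nil.

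**Figure D1:**
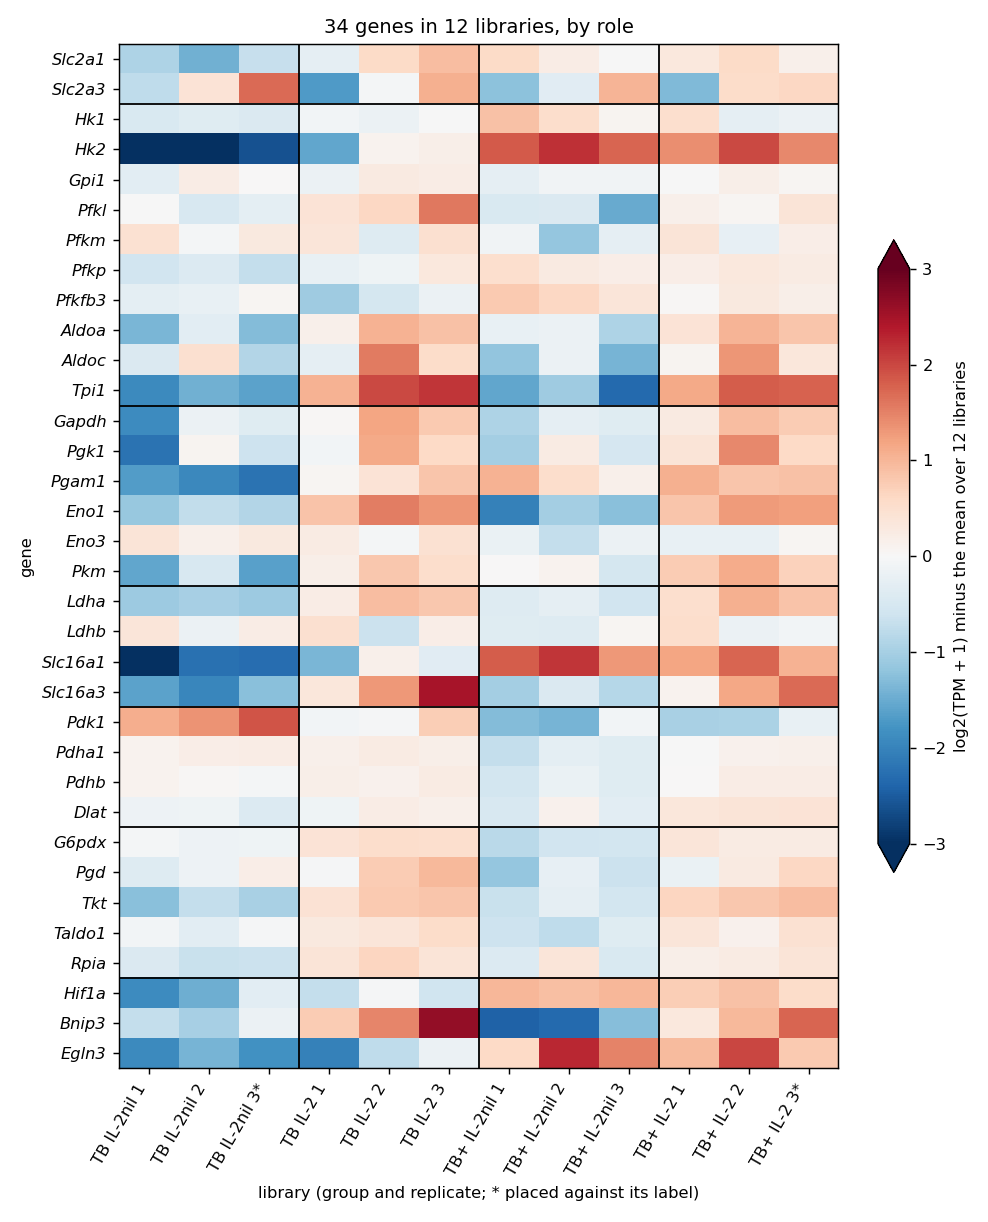
Level of each of the 34 genes in the 12 libraries, as log2(TPM + 1) minus the gene's mean over the 12 libraries, with genes grouped by role (rows) and libraries by group (columns). *Tpi1*, *Eno1*, *Slc16a3* and *Bnip3* are red in both groups with IL-2, whereas *Hk2*, *Slc16a1* and *Egln3* are darkest red in both groups given PMA/I. Asterisks mark the 2 libraries placed against their labels, and colours stop at 3 in either direction.

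The comparison of TB IL-2 with TB IL-2nil asked which of these genes depended on IL-2 before restimulation. Differences are given on the log2(TPM + 1) scale, which understates the fold of weakly expressed genes. The genes higher with IL-2 included 5 of 10 of upper glycolysis, 4 of 6 of lower glycolysis, 3 of 4 of lactate and 4 of 5 of the pentose phosphate pathway, with the largest difference in *Tpi1*, and the kinase gene *Pdk1*, whose product holds pyruvate back from the mitochondrion, was lower. Of the 34 genes, 18 were higher and 1 lower at an adjusted P under 0.05 (limma with Benjamini-Hochberg adjustment over all genes, as for every adjusted P here), where 17.3% of all genes tested were called higher and 22.3% lower. At the study's call of more than 3-fold with that P, 11 were called, against 7.42% of all genes. The median log2 difference of the 34 was 0.83, and that of all genes -0.13. Without both doubtful libraries 17 genes passed, all higher, and *Pfkl*, *Pfkp* and *Pdk1* were no longer among them (adjusted P = 0.0666, 0.101 and 0.0791), while *Hif1a* was (adjusted P = 0.00561). With no scaling between libraries 14 genes passed, all higher, and *Pfkl*, *Pfkp*, *Pdk1*, *G6pdx* and *Taldo1* were no longer called. Single libraries also decided some calls. *Gapdh* missed the threshold without TB IL-2 replicate 2, TB IL-2 replicate 3 or TB IL-2nil replicate 1 (log2 difference 0.94 to 1.42, adjusted P = 0.0547 to 0.0776). *Pfkl* did without TB IL-2 replicate 3 or TB IL-2nil replicates 2 or 3 (0.77 to 1.11, adjusted P = 0.0527 to 0.0867), *Pfkp* without TB IL-2 replicate 3 or TB IL-2nil replicates 1 or 3 (0.40 to 0.56, adjusted P = 0.0559 to 0.099), *Taldo1* without TB IL-2 replicate 3 or TB IL-2nil replicate 2 (0.46 to 0.48, adjusted P = 0.0704 to 0.0749), and *Pdk1* without TB IL-2 replicates 1 or 2 or TB IL-2nil replicates 2 or 3 (-1.28 to -1.02, adjusted P = 0.0504 to 0.0829).

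After PMA/I, the comparison of TB+ IL-2 with TB+ IL-2nil asked which genes still differed with IL-2 once the cells were stimulated. *Tpi1*, *Bnip3* and *Eno1* had the largest differences among the calls, *Hk2*, *Slc16a1* and *Pgam1* were no longer on it, and 3 subunit genes of the pyruvate dehydrogenase complex were. Of the 34 genes, 13 were higher and 0 lower at an adjusted P under 0.05 (18 at an unadjusted P under 0.05 in either direction), where 12.9% of all genes were called higher and 8.4% lower. At more than 3-fold 4 were called, against 3.62% of all genes. The median log2 difference was 0.57, and that of all genes -0.04. Without both doubtful libraries 7 genes passed, and *Aldoa*, *Pkm*, *Slc16a3*, *Pdha1*, *Pdhb* and *Dlat* did not (adjusted P = 0.104, 0.0785, 0.139, 0.102, 0.111 and 0.117). The same 6 genes each missed the threshold without TB+ IL-2 replicate 2, TB+ IL-2 replicate 3 or TB+ IL-2nil replicate 1, and the *Aldoa*, *Pkm*, *Slc16a3* and *Dlat* calls also without TB+ IL-2nil replicate 3. *Pkm* and *Dlat* further missed it without TB+ IL-2 replicate 1 or TB IL-2 replicate 3. Over these left-out libraries the adjusted P went up to 0.0932 for *Aldoa* (log2 difference 0.96 to 1.3), 0.121 for *Pkm* (0.81 to 1.09) and *Slc16a3* (1.4 to 1.72), 0.0783 for *Pdha1* (0.42 to 0.53), 0.0894 for *Pdhb* (0.43 to 0.49) and 0.135 for *Dlat* (0.47 to 0.61). Processing settings also removed calls. *Pdha1*, *Pdhb* and *Dlat* missed the threshold with no scaling, *Dlat* and *Slc16a3* with quantile normalization, and *Dlat* and *Pkm* with median-of-ratios scaling. *Aldoa*, *Pkm* and *Slc16a3* missed it with no filter on low values, and *Pkm* with a pseudocount of 0.1.

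**Figure D2:**
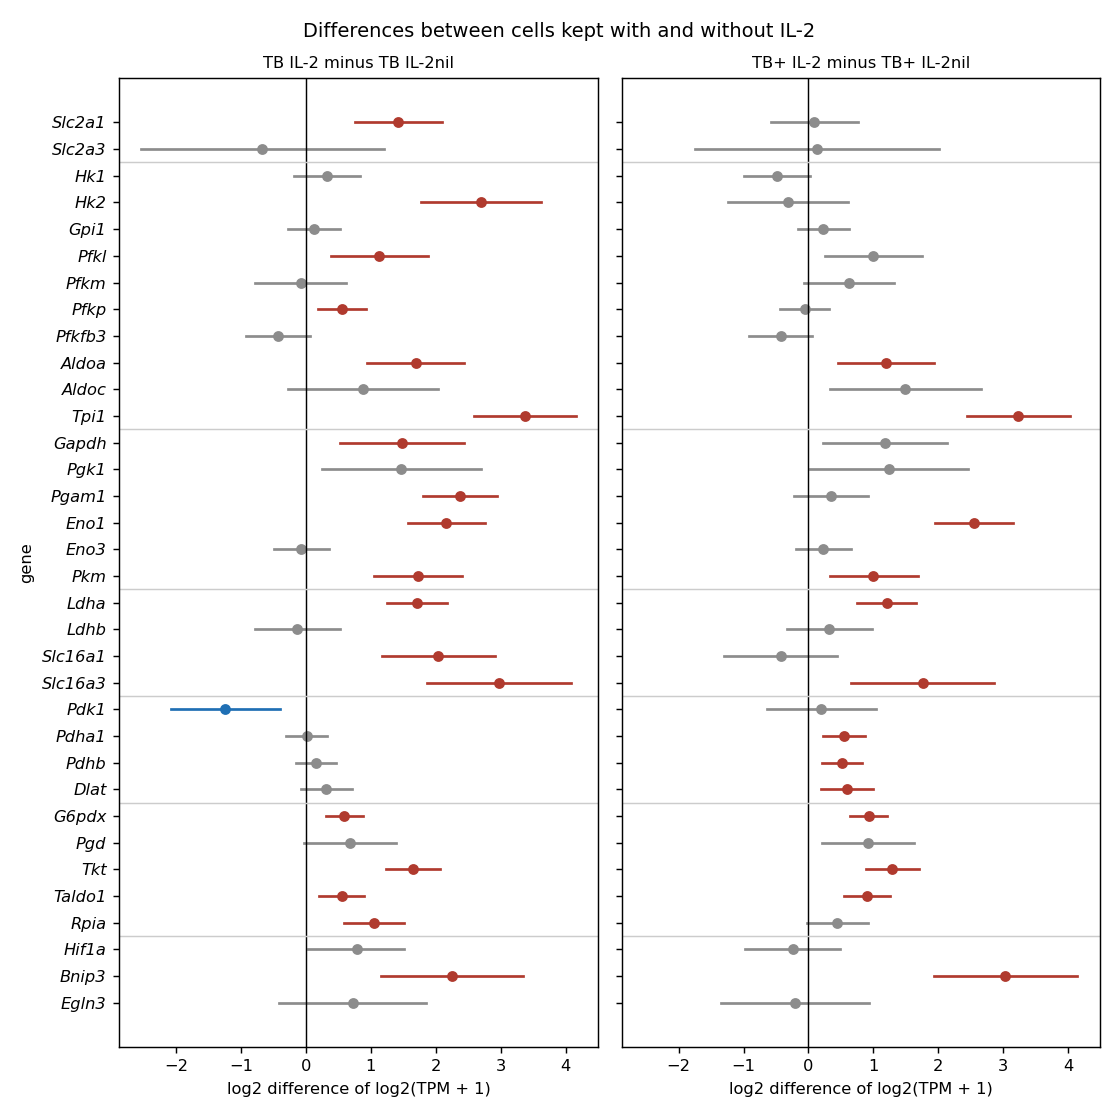
Log2 difference of log2(TPM + 1) between cells with and without IL-2, before PMA/I (left) and after it (right), with 95% confidence intervals from limma. Red genes were higher and blue genes lower at an adjusted P under 0.05, and grey genes did not pass. *Tpi1* lies at 3.38 and 3.23 in the respective panels, while *Hk2* goes from 2.69 to -0.32.

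PMA/I with IL-2 present, TB+ IL-2 against TB IL-2, changed few of these genes. It raised *Hk2*, *Pfkfb3*, *Slc16a1*, *Hif1a* and *Egln3*, and none fell. These 5 higher and 0 lower calls (6 genes at an unadjusted P under 0.05) stand beside 11.8% of all genes called higher and 23.3% called lower. At more than 3-fold 3 were called, where 7.04% of all genes were. The median log2 difference of the 34 was -0.02, and that of all genes -0.22. *Pfkfb3* missed the threshold without both doubtful libraries (adjusted P = 0.0579), and without TB IL-2 replicate 1, TB+ IL-2 replicate 2 or TB+ IL-2 replicate 3 (log2 difference 0.52 to 0.74, adjusted P = 0.0514 to 0.0801). *Hif1a* missed it without TB IL-2 replicates 1 or 3 or TB+ IL-2 replicates 1 or 2 (1.04 to 1.16, adjusted P = 0.0514 to 0.0674).

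PMA/I without IL-2, TB+ IL-2nil against TB IL-2nil, changed more of them, as it did of all genes. Taken in both directions together, the calls were no more frequent among the 34 genes than among all genes. *Hk2*, *Slc16a1*, *Egln3*, *Pgam1* and *Hif1a* rose the most, and *Pdk1* and *Bnip3* fell the most. Of the 34 genes, 12 were higher and 7 lower, where 20.1% of all genes were called higher and 41.1% lower. At more than 3-fold 6 were called, against 18.5% of all genes. The median log2 difference of the 34 was 0.15 and that of all genes -0.38, which was -0.14 with quantile normalization, -0.08 with median-of-ratios scaling and -0.78 with no scaling between libraries. The split of calls moved with it, where the shares of all genes called were not counted. It came to 14 higher and 1 lower with median-of-ratios scaling and 5 higher and 12 lower with no scaling. Small differences therefore had no firm direction. *Ldha* was at 0.65 but at -0.03 with quantile normalization, *Tkt* at 0.48 but at -0.06 with no scaling, and *Pdhb* (-0.39) came to 0 with median-of-ratios scaling. *Eno3* (-0.64) lay between -1.09 and 0 over the alternatives, and lost its call with quantile normalization and with median-of-ratios scaling. Without both doubtful libraries 9 genes were higher and 4 lower, with *Pkm*, *Ldha*, *Pdhb*, *Tkt*, *Taldo1* and *Bnip3* no longer called (adjusted P = 0.0558, 0.0633, 0.0549, 0.0982, 0.114 and 0.0904). With the replicate number as a block, 12 were higher and 12 lower, with the shares of all genes again not counted. *Slc2a3*, *Pfkm*, *Aldoc*, *Eno1* and *Pgd* joined the lower genes (blocked adjusted P = 0.0446, 0.00159, 0.0268, 0.0103 and 0.0162).

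Some of the smaller calls of PMA/I without IL-2 also rested on 1 library. *Eno3* (-0.46, adjusted P = 0.0546) and *Ldha* (0.57, adjusted P = 0.0618) missed the threshold without TB+ IL-2nil replicate 2. *Taldo1* (-0.42 to -0.35, adjusted P = 0.076 to 0.114) and *Bnip3* (-1.42 to -1.16, adjusted P = 0.0575 to 0.104) missed it without TB IL-2nil replicates 1 or 3 or TB+ IL-2nil replicates 1 or 2. *Pdhb* did without TB IL-2nil replicates 1 or 2 or TB+ IL-2nil replicates 1 or 3 (-0.40 to -0.30, adjusted P = 0.0526 to 0.106). *Tkt* did without TB IL-2nil replicates 1 or 3, TB+ IL-2nil replicates 2 or 3, or replicate 2 of TB IL-2 or TB+ IL-2 (0.35 to 0.51, adjusted P = 0.0504 to 0.151).

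**Figure D3:**
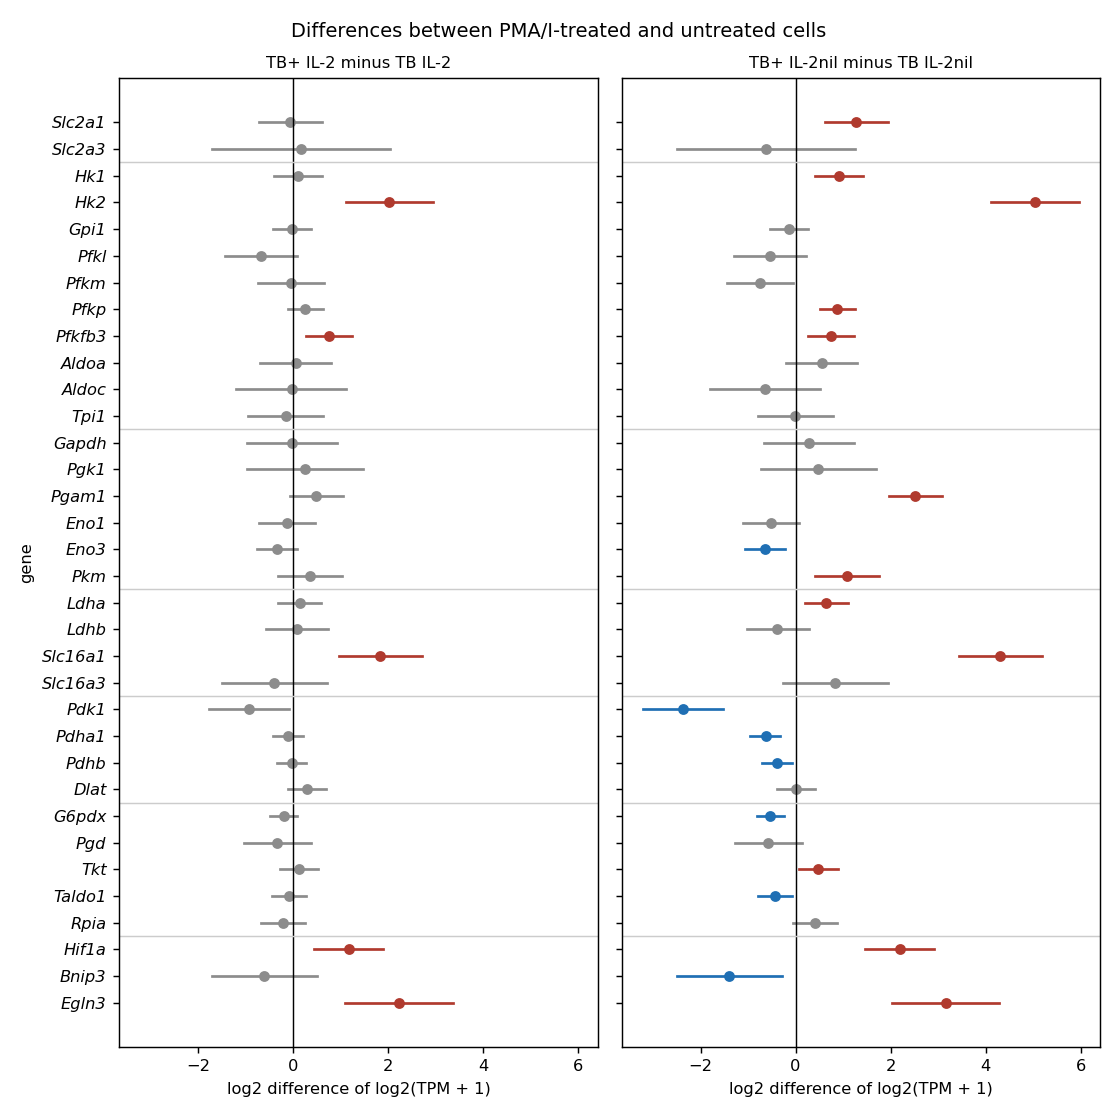
Log2 difference of log2(TPM + 1) between PMA/I-treated and untreated cells, with IL-2 (left) and without it (right), with 95% confidence intervals from limma. Red genes were higher and blue genes lower at an adjusted P under 0.05, and grey genes did not pass. *Hk2* lies at 2.03 with IL-2 and at 5.04 without it, and *Pdk1* at -0.92 and -2.36.

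Glucose enters T cells through GLUT1, encoded by *Slc2a1* (mm9 chromosome 4, 118781316 to 118809935, plus strand, GENCODE M1 models as for all gene positions), and the high-affinity GLUT3, encoded by *Slc2a3*. *Slc2a1* was at 22.9, 15.5 and 27.1 TPM in TB IL-2nil, 36.4, 65.8 and 84.5 in TB IL-2, 65.8, 51.7 and 43.5 in TB+ IL-2nil, and 55.6, 65.9 and 49.3 in TB+ IL-2. The TB IL-2nil libraries were thus the lowest, with no overlap with the other groups. The log2 difference with IL-2 was 1.42 (SE 0.30, adjusted P = 0.00408) in resting cells, and that with PMA/I in the absence of IL-2 was 1.27 (SE 0.30, adjusted P = 0.00368). In cells given PMA/I, IL-2 made a difference of 0.09 (95% confidence interval -0.57 to 0.76). *Slc2a3* did not follow the groups. It was at 11.1, 26.4 and 66.2 TPM in TB IL-2nil, 5.41, 19 and 42.5 in TB IL-2, 7.8, 15.4 and 41.2 in TB+ IL-2nil, and 7.28, 29.4 and 30.8 in TB+ IL-2, so that in each group the library of replicate 1 was the lowest and that of replicate 3 the highest. It passed no test without the block, and with the replicate number as a block it was lower with IL-2 in resting cells (-0.67, blocked adjusted P = 0.0461) and lower with PMA/I in the absence of IL-2 (-0.62, blocked adjusted P = 0.0446).

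Hexokinase traps glucose in the cell as glucose 6-phosphate, and *Hk2* (chromosome 6, 82675019 to 82724448, minus strand) encodes its inducible form. *Hk2* was at 1.85, 1.05 and 3.03 TPM in TB IL-2nil, 7.48, 25.6 and 27.2 in TB IL-2, 88, 112 and 81.6 in TB+ IL-2nil, and 64.6, 97.2 and 66.1 in TB+ IL-2. TB IL-2 was above TB IL-2nil and below both stimulated groups in every library, while the stimulated groups overlapped with each other. IL-2 raised it by 2.69 (SE 0.42, adjusted P = 0.000783) in resting cells. PMA/I raised it by 2.03 (SE 0.42, adjusted P = 0.00378) with IL-2 and by 5.04 (SE 0.42, adjusted P = 4.49e-06) without it, a fold of 32.8 on this scale. *Hk1*, the constitutive form, was at 51.2, 54 and 52 TPM in TB IL-2nil, 66.3, 61.7 and 69.7 in TB IL-2, 130, 102 and 74.3 in TB+ IL-2nil, and 99.6, 58 and 62.1 in TB+ IL-2. Its call was the rise with PMA/I in the absence of IL-2 (0.91, SE 0.23, adjusted P = 0.00559).

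The next steps make and cleave fructose 1,6-bisphosphate. *Gpi1*, the isomerase, did not pass in any comparison (with PMA/I in the absence of IL-2 it was at -0.13, and was called lower with quantile normalization and with no scaling), with group means from 257 ± 16.9 TPM in TB+ IL-2nil to 310 ± 51.8 TPM in TB IL-2 (SD, n = 3). Phosphofructokinase commits sugar to glycolysis, and its liver-type gene *Pfkl* was higher with IL-2 in resting cells (1.13, SE 0.34, adjusted P = 0.0219). So was the platelet-type *Pfkp* (0.56, SE 0.17, adjusted P = 0.0229), which PMA/I without IL-2 also raised (0.88, SE 0.17, adjusted P = 0.000972). The muscle-type *Pfkm*, at 2.51 to 9.97 TPM, was at -0.75 with PMA/I in the absence of IL-2 (adjusted P = 0.0598, and 0.00159 with the replicate block) and at 0.63 with IL-2 in stimulated cells (adjusted P = 0.184, and 0.0113 with the block). *Pfkfb3* makes fructose 2,6-bisphosphate, the activator of phosphofructokinase. It was at 11.7, 12.4 and 15.2 TPM in TB IL-2nil, 6.47, 9.8 and 12.8 in TB IL-2, 25.9, 23 and 19 in TB+ IL-2nil, and 14.9, 18 and 16.7 in TB+ IL-2. PMA/I raised it by 0.75 with IL-2 (SE 0.22, adjusted P = 0.0219) and by 0.75 without it (SE 0.22, adjusted P = 0.0124).

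Aldolase and triosephosphate isomerase follow. *Aldoa*, the main aldolase gene here, was at 267, 561 and 283 TPM in TB IL-2nil, 770, 1430 and 1290 in TB IL-2, 593, 613 and 368 in TB+ IL-2nil, and 919, 1410 and 1250 in TB+ IL-2. It was higher with IL-2 by 1.69 in resting cells (SE 0.34, adjusted P = 0.00306) and by 1.2 in stimulated cells (SE 0.34, adjusted P = 0.0297). *Aldoc*, at 1.73 to 20.2 TPM, was at 0.88 with IL-2 in resting cells (adjusted P = 0.202, and 0.0089 with the replicate block), at 1.49 with IL-2 in stimulated cells (adjusted P = 0.0663, and 0.00129 with the block) and at -0.64 with PMA/I in the absence of IL-2 (adjusted P = 0.31, and 0.0268 with the block). *Tpi1* (chromosome 6, 124760604 to 124764314, minus strand) had the largest difference with IL-2 among the 34 genes in either state. It was at 31, 43.5 and 38.9 TPM in TB IL-2nil, 247, 478 and 536 in TB IL-2, 39.7, 56.2 and 23 in TB+ IL-2nil, and 265, 422 and 412 in TB+ IL-2. Every library with IL-2 was above every library without it, and PMA/I made no difference beyond the spread (-0.15 with IL-2, 95% confidence interval -0.94 to 0.63, and -0.01 without it, -0.80 to 0.78). The difference with IL-2 was 3.38 in resting cells (SE 0.36, adjusted P = 0.00011, a fold of 10.4) and 3.23 in stimulated cells (SE 0.36, adjusted P = 0.000294, a fold of 9.39).

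Lower glycolysis regenerates ATP and makes pyruvate. *Gapdh*, often used as a reference gene, was at 330, 1080 and 945 TPM in TB IL-2nil, 1250, 2780 and 2090 in TB IL-2, 636, 1010 and 939 in TB+ IL-2nil, and 1470, 2290 and 2060 in TB+ IL-2. It was therefore not constant across these groups, being higher with IL-2 by 1.48 in resting cells (SE 0.43, adjusted P = 0.0192), and by 1.18 in stimulated cells (SE 0.43, adjusted P = 0.0758, and 0.00363 with the replicate block). *Pgk1*, the gene of phosphoglycerate kinase, was at 149, 734 and 452 TPM in TB IL-2nil, 662, 1520 and 1050 in TB IL-2, 340, 822 and 487 in TB+ IL-2nil, and 910, 1880 and 1050 in TB+ IL-2. In each group replicate 1 was the lowest and replicate 2 the highest. Its differences with IL-2 of 1.47 (adjusted P = 0.0551) and 1.24 (adjusted P = 0.136) passed with the replicate block (adjusted P = 0.00128 and 0.00543).

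*Pgam1* (chromosome 19, 41986361 to 41993154, plus strand) encodes the main phosphoglycerate mutase. It was at 55.6, 46.2 and 38 TPM in TB IL-2nil, 186, 240 and 321 in TB IL-2, 371, 261 and 200 in TB+ IL-2nil, and 378, 319 and 331 in TB+ IL-2. TB IL-2nil was the lowest group, and TB IL-2 and TB+ IL-2nil overlapped. This gave a difference of 2.37 with IL-2 in resting cells (SE 0.26, adjusted P = 0.00012) and of 2.52 with PMA/I in the absence of IL-2 (SE 0.26, adjusted P = 1.44e-05), while PMA/I in the presence of IL-2 made 0.49 (95% confidence interval -0.07 to 1.06). *Eno1*, the ubiquitous enolase gene (chromosome 4, 149610830 to 149622988, plus strand), behaved like *Tpi1*. It was at 220, 291 and 262 TPM in TB IL-2nil, 882, 1410 and 1220 in TB IL-2, 118, 240 and 203 in TB+ IL-2nil, and 871, 1170 and 1140 in TB+ IL-2. Its differences with IL-2 were 2.16 (SE 0.27, adjusted P = 0.000243) and 2.55 (SE 0.27, adjusted P = 0.000233), and with PMA/I it was at -0.13 with IL-2 and at -0.51 without it (adjusted P = 0.12, and 0.0103 with the replicate block). The muscle enolase gene *Eno3*, at 2.99 to 7.95 TPM, was lower with PMA/I in the absence of IL-2 (-0.64, SE 0.19, adjusted P = 0.0132). *Pkm*, the pyruvate kinase gene, was at 316, 668 and 304 TPM in TB IL-2nil, 1060, 1650 and 1340 in TB IL-2, 940, 1010 and 646 in TB+ IL-2nil, and 1600, 2030 and 1520 in TB+ IL-2. IL-2 raised it by 1.73 in resting cells (SE 0.31, adjusted P = 0.00161) and by 1.0 in stimulated cells (SE 0.31, adjusted P = 0.0399), and PMA/I without IL-2 by 1.08 (SE 0.31, adjusted P = 0.0101). Its 2 splice forms, PKM1 and PKM2, share 1 value here. *Gapdh*, *Pgk1*, *Eno1*, *Ldha* and *Pgam1* have processed copies elsewhere in the genome, so reads can have been divided and single values are uncertain.

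**Figure D4:**
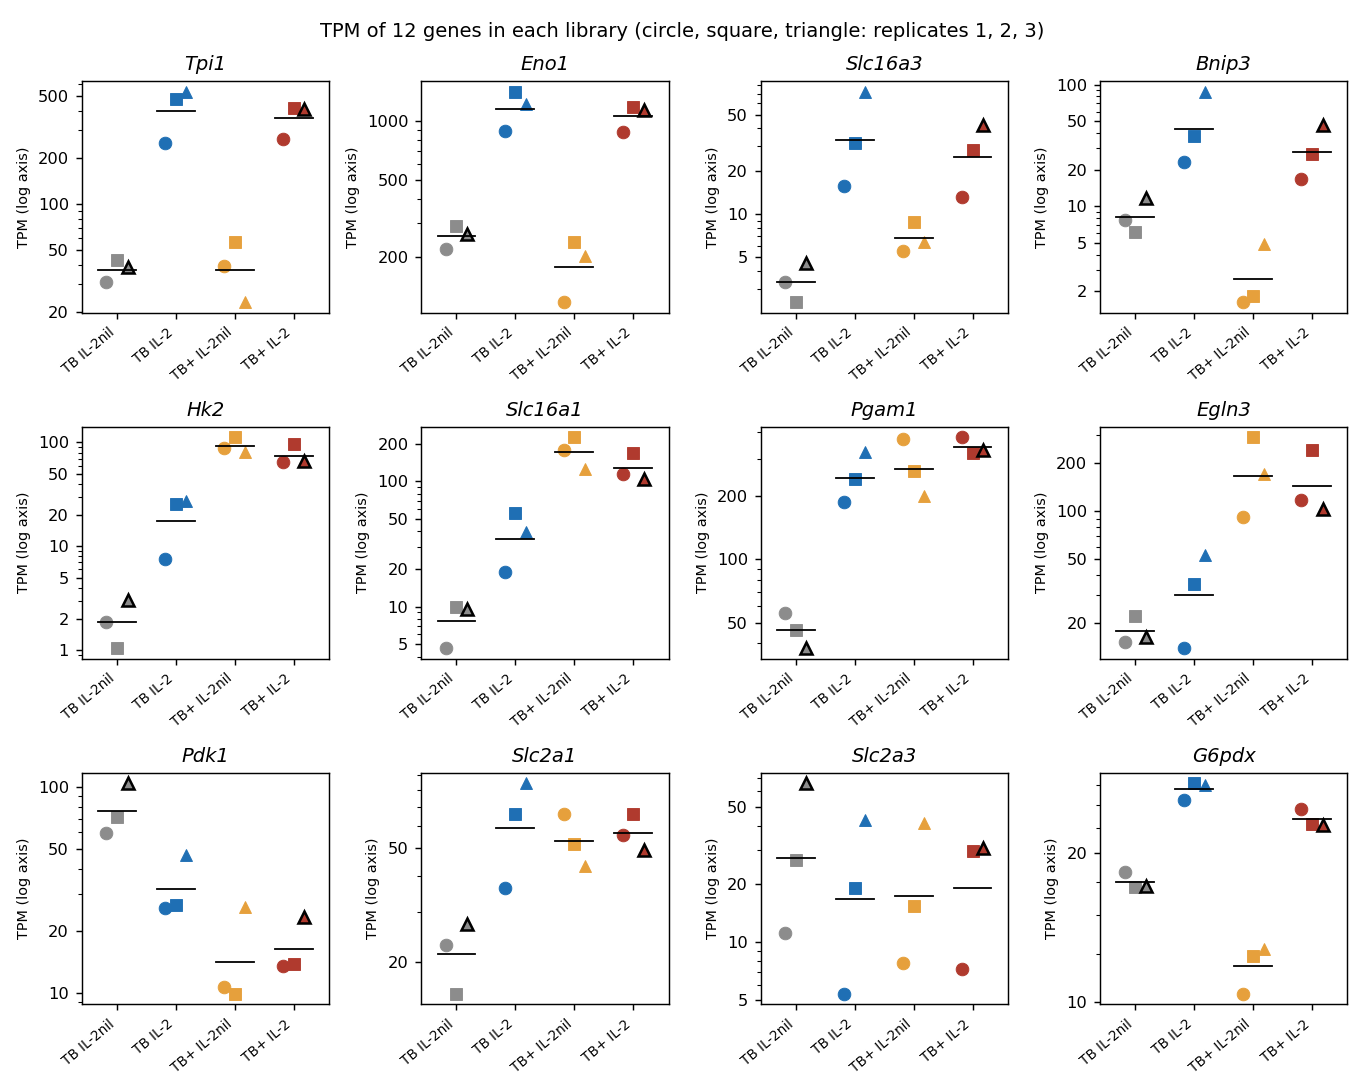
TPM (log axis) of 12 genes in each library, with colours for the 4 groups, shapes for the replicate number and black outlines for the 2 libraries placed against their labels. Bars are group means of log2(TPM + 1) turned back to TPM. *Tpi1* stays between 23 and 56.2 TPM in all libraries without IL-2 and between 247 and 536 TPM in those with it, whereas *Hk2* and *Slc16a1* are highest in both stimulated groups.

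Lactate dehydrogenase turns pyruvate into lactate and restores the NAD that glycolysis needs. *Ldha* was at 373, 401 and 377 TPM in TB IL-2nil, 936, 1520 and 1400 in TB IL-2, 613, 667 and 534 in TB+ IL-2nil, and 1130, 1670 and 1440 in TB+ IL-2. Both groups with IL-2 were above both without it, by 1.71 in resting cells (SE 0.21, adjusted P = 0.000208) and by 1.21 in stimulated cells (SE 0.21, adjusted P = 0.00275). PMA/I in the absence of IL-2 made 0.65 (SE 0.21, adjusted P = 0.0184). *Ldhb*, the heart form, was at 1.84 to 5.41 TPM and passed no test.

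Lactate leaves the cell through the transporters MCT1, encoded by *Slc16a1* (chromosome 3, 104442591 to 104462385, plus strand), and MCT4, encoded by *Slc16a3* (chromosome 11, 120809794 to 120822182, plus strand). *Slc16a1* was at 4.68, 9.88 and 9.56 TPM in TB IL-2nil, 18.8, 55.9 and 39.5 in TB IL-2, 178, 225 and 126 in TB+ IL-2nil, and 115, 170 and 105 in TB+ IL-2. Like *Hk2*, it rose with IL-2 in resting cells (2.04, SE 0.40, adjusted P = 0.00249) and further with PMA/I, by 1.84 with IL-2 (SE 0.40, adjusted P = 0.00468) and by 4.31 without it (SE 0.40, adjusted P = 8.15e-06, a fold of 19.9). *Slc16a3* was at 3.37, 2.42 and 4.55 TPM in TB IL-2nil, 15.8, 31.8 and 72.4 in TB IL-2, 5.51, 8.83 and 6.35 in TB+ IL-2nil, and 13.3, 28.4 and 42.1 in TB+ IL-2. It was higher with IL-2 in both states, by 2.98 (SE 0.50, adjusted P = 0.00122) and by 1.76 (SE 0.50, adjusted P = 0.0307), and did not pass with PMA/I (-0.39 with IL-2 and 0.83 without it).

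Pyruvate that is not made into lactate enters the mitochondrion through the pyruvate dehydrogenase complex, which the kinase PDK1 switches off. *Pdk1* (chromosome 2, 71711281 to 71741915, plus strand) ran against most of the other genes. It was at 59.7, 71.4 and 104 TPM in TB IL-2nil, 25.8, 26.6 and 46.5 in TB IL-2, 10.6, 9.86 and 26.1 in TB+ IL-2nil, and 13.5, 13.7 and 23.3 in TB+ IL-2. TB IL-2nil was the highest group, with no overlap with any other. It was lower with IL-2 in resting cells (-1.24, SE 0.38, adjusted P = 0.024) and with PMA/I in the absence of IL-2 (-2.36, SE 0.38, adjusted P = 0.000302), and at -0.92 with PMA/I in the presence of IL-2 (adjusted P = 0.0817, and 0.00141 with the replicate block). *Pdha1* and *Pdhb* encode the subunits of the enzyme's first component. Without IL-2, PMA/I lowered *Pdha1* from 84.5 ± 3.63 to 54.5 ± 8.37 TPM (SD, n = 3 each, log2 difference -0.63, SE 0.14, adjusted P = 0.00289). *Pdhb* went from 53.6 ± 3.01 to 40.8 ± 5.03 TPM (-0.39, SE 0.14, adjusted P = 0.0307), near the median of -0.38 of all genes. With median-of-ratios scaling *Pdhb* came to 0 and neither gene passed. In stimulated cells these genes and *Dlat*, the gene of the second component, were higher with IL-2, by 0.55 (SE 0.14, adjusted P = 0.0215), 0.52 (SE 0.14, adjusted P = 0.0247) and 0.60 (SE 0.18, adjusted P = 0.0375). All of these calls were lost with no scaling between libraries, and that of *Dlat* also with quantile normalization and median-of-ratios scaling.

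Of the 5 pentose phosphate genes, 4 were higher with IL-2 in resting cells and 3 in stimulated cells. Of all genes, 17.3% and 12.9% were called higher in these respective comparisons. *G6pdx* encodes glucose-6-phosphate dehydrogenase, which opens the branch, and was at 18.3, 17.1 and 17.2 TPM in TB IL-2nil, 25.6, 27.7 and 27.5 in TB IL-2, 10.4, 12.4 and 12.8 in TB+ IL-2nil, and 24.6, 22.9 and 22.8 in TB+ IL-2. Its groups did not overlap, and the spread within each was small. It was higher with IL-2 by 0.59 (SE 0.13, adjusted P = 0.0047) and, after PMA/I, by 0.93 (SE 0.13, adjusted P = 0.000951), and lower with PMA/I in the absence of IL-2 (-0.53, SE 0.13, adjusted P = 0.00437, but -0.15 to -1.04 over the alternatives, and past the threshold under all but 3 of 23). The call with IL-2 in resting cells was lost with no scaling between libraries, as was that of *Taldo1*. *Tkt*, the transketolase gene of the non-oxidative arm, was at 47.7, 68.9 and 57.6 TPM in TB IL-2nil, 154, 196 and 203 in TB IL-2, 71.7, 94.7 and 77.7 in TB+ IL-2nil, and 180, 201 and 219 in TB+ IL-2. Both groups with IL-2 were above both without it, by 1.65 (SE 0.19, adjusted P = 0.000136) and by 1.29 (SE 0.19, adjusted P = 0.00107), with 0.48 for PMA/I in the absence of IL-2 (SE 0.19, adjusted P = 0.0402). *Taldo1*, for transaldolase, was higher with IL-2 by 0.55 (SE 0.16, adjusted P = 0.0189) and 0.90 (SE 0.16, adjusted P = 0.00322), and lower with PMA/I in its absence (-0.44, SE 0.16, adjusted P = 0.0341). *Rpia*, for ribose-5-phosphate isomerase, passed in resting cells (1.05, SE 0.21, adjusted P = 0.00313) and not in stimulated cells (0.44, adjusted P = 0.164). *Pgd*, for the second oxidative enzyme, was at 0.68 (adjusted P = 0.116) and 0.92 (adjusted P = 0.0641), which passed with the replicate block (adjusted P = 0.0111 and 0.00453).

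The 3 hypoxia genes are the factor itself and a pair of its targets. *Hif1a* (chromosome 12, 75002362 to 75048517, plus strand) was at 64.9, 88 and 195 TPM in TB IL-2nil, 148, 237 and 161 in TB IL-2, 491, 454 and 484 in TB+ IL-2nil, and 406, 447 and 359 in TB+ IL-2. Stimulated cells were above resting cells in every library, by 1.17 with IL-2 (SE 0.33, adjusted P = 0.0188) and by 2.19 without it (SE 0.33, adjusted P = 0.000203). *Egln3* (chromosome 12, 55279968 to 55304847, minus strand) encodes a prolyl hydroxylase that marks HIF-1α for destruction and is itself a HIF target. It was at 15.2, 22.2 and 16.4 TPM in TB IL-2nil, 13.9, 34.9 and 53.2 in TB IL-2, 91.6, 291 and 171 in TB+ IL-2nil, and 117, 244 and 104 in TB+ IL-2. PMA/I raised it by 2.23 with IL-2 (SE 0.52, adjusted P = 0.00669) and by 3.16 without it (SE 0.52, adjusted P = 0.000325). *Bnip3* (chromosome 7, 146082519 to 146101202, minus strand) encodes a mitophagy receptor and is also a HIF target. It was at 7.71, 6.11 and 11.6 TPM in TB IL-2nil, 23.3, 38 and 87.7 in TB IL-2, 1.63, 1.82 and 4.86 in TB+ IL-2nil, and 16.8, 27.1 and 46.9 in TB+ IL-2. It was higher with IL-2, by 2.25 in resting cells (SE 0.50, adjusted P = 0.00515) and by 3.03 in stimulated cells (SE 0.50, adjusted P = 0.00224), and it fell with PMA/I in the absence of IL-2 (-1.39, SE 0.50, adjusted P = 0.0318). That fall kept its direction (-2.03 to -0.81) but lost the call under 9 of 23 alternatives. Among these were quantile normalization, median-of-ratios scaling and no filter on low values.

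The interaction, the PMA/I difference with IL-2 minus that without it, tested whether IL-2 changed the response to PMA/I. It passed in *Hk2* (-3.01, SE 0.59, adjusted P = 0.0265), *Slc16a1* (-2.47, SE 0.56, adjusted P = 0.0368) and *Pgam1* (-2.03, SE 0.36, adjusted P = 0.0198), where 1.57% of all genes were called higher and 2.66% lower. In each of the 3 genes PMA/I made the larger difference in cells without IL-2, which started from the lowest level. After PMA/I the libraries with and without IL-2 overlapped in all 3 genes. The estimates are the same by the labels, since both doubtful libraries enter the contrast with the same sign, but the spread is not (adjusted P = 0.914 for each gene). Without both libraries they were -3.16, -2.47 and -1.86 (adjusted P = 0.0814, 0.11 and 0.0894), so that none of the calls held. Each also missed the threshold when single libraries were left out, with an adjusted P of 0.0501 to 0.0692 for *Hk2* in 8 of 12 cases, of 0.0518 to 0.0873 for *Slc16a1* in 10 and of 0.0504 to 0.0571 for *Pgam1* in 4. All 3 missed it with no scaling between libraries. *Slc16a1* further missed it with a pseudocount of 0.1 and with no filter on low values, and so under 15 of 23 alternatives. *Pdk1* was at 1.44 (adjusted P = 0.143) and passed with the replicate block (adjusted P = 0.0106).

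The paralogues of a step therefore took different shares. *Hk2* made up 1.9 to 5.51% of the summed *Hk1* and *Hk2* TPM in TB IL-2nil, 10.1 to 29.3% in TB IL-2, 40.4 to 52.5% in TB+ IL-2nil and 39.4 to 62.6% in TB+ IL-2. *Slc16a1* made up 58.2 to 80.3% of the 2 lactate transporters in TB IL-2nil, 35.3 to 63.8% in TB IL-2, 95.2 to 97% in TB+ IL-2nil and 71.3 to 89.6% in TB+ IL-2, so that the share of *Slc16a3* after PMA/I was 3 to 4.81% without IL-2 and 10.4 to 28.7% with it. Among the phosphofructokinases *Pfkp* held 84.6 to 88.4% in TB+ IL-2nil and 58.3 to 79.1% in the other groups. The aldolase, enolase and lactate dehydrogenase steps were each carried by 1 gene, with *Aldoa* at 98.4% or more, *Eno1* at 96.2% or more and *Ldha* at 98.7% or more in every library.

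**Figure D5:**
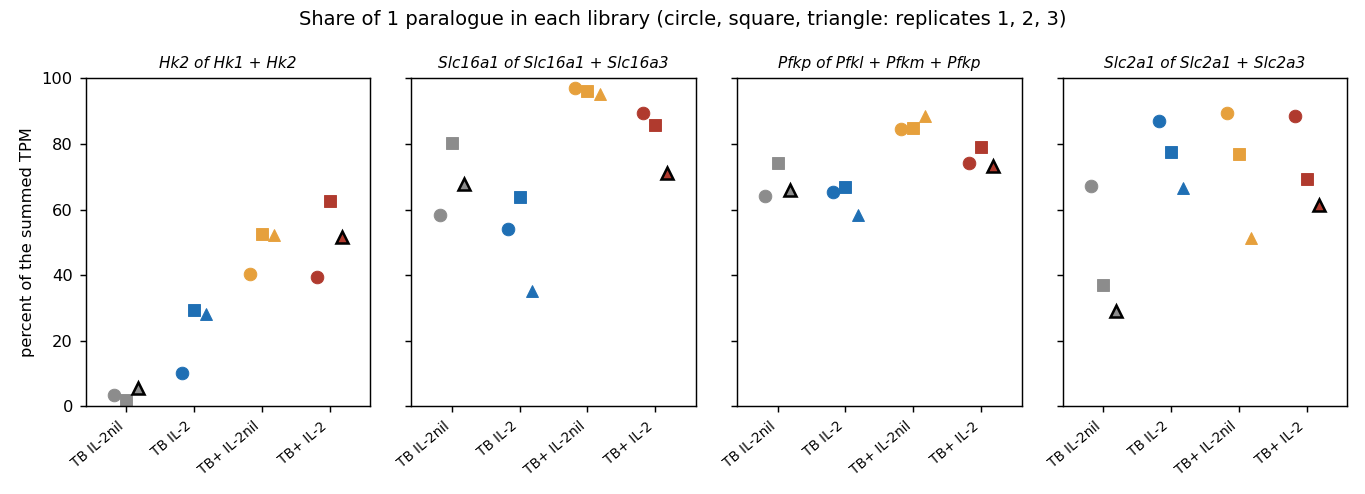
Percent of the summed TPM of a step that 1 paralogue held in each library, for hexokinase, lactate transport, phosphofructokinase and glucose transport. Colours stand for groups, shapes for the replicate number and black outlines for the 2 libraries placed against their labels. The *Hk2* share is at most 5.51% in TB IL-2nil and at least 39.4% in both stimulated groups.

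The 2 IL-2 contrasts share no library, nor do the 2 PMA/I contrasts, while every other pair of contrasts shares a group. Across the 34 genes the IL-2 differences in resting and stimulated cells correlated with Pearson's r of 0.553 (Spearman's rho 0.481), and 0.595 across all genes, and the PMA/I differences with and without IL-2 with an r of 0.89 (rho 0.732), and 0.833 across all genes. These are descriptions across genes, which are not independent replicates.

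The promoters of some genes that differed with IL-2, with PMA/I or with both are shown for the letters that HIF-1 and MYC bind. RefSeq windows of 300 bases (250 before the start of transcription and 50 after it, GRCm38.p6) were at hand for 33 of the 34 genes, in 47 windows. The HIF core was searched as ACGTG and as GCGTG on both strands, and the E-box of MYC and MAX as CACGTG, which holds ACGTG on each strand and so counts in both. ACGTG was in 46.8% of the 47 windows and in 19.6% of all 32851 windows, GCGTG in 59.6% and 32.4%, and CACGTG in 12.8% and 7.15%. The windows of the 34 genes were richer in GC (median 61% against 52.7%) and in CG pairs (20 against 7 in a window), and the part of this in the motif shares was not tested. TTCNNNGAA, the palindrome of STAT5, was in 4.26% and 8.3%, and TGANTCA, that of AP-1, in 2.13% and 7.81%. A match is not a bound site. In the sequences below capitals mark ACGTG or GCGTG on either strand, where adjoining or overlapping matches run together. *Tpi1*, *Slc16a3* and *Bnip3* are shown as genes higher with IL-2 in both resting and stimulated cells. *Hk2*, *Slc16a1* and *Egln3* are shown as genes higher with PMA/I both with and without IL-2. These sets are not exclusive, as *Hk2* and *Slc16a1* were also higher with IL-2 in resting cells. *Bnip3* also fell with PMA/I in the absence of IL-2. Each sequence runs 5′ to 3′ on the strand of the gene.
Tpi1 (chr6:124814109-124814408, minus strand): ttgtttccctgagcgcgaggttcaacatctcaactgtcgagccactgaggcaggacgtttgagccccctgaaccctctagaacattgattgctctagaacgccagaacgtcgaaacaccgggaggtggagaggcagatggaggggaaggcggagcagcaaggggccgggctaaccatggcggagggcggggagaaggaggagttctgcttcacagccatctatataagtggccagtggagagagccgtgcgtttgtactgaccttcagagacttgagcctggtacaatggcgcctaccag
Slc16a3 (chr11:120948817-120949116, plus strand): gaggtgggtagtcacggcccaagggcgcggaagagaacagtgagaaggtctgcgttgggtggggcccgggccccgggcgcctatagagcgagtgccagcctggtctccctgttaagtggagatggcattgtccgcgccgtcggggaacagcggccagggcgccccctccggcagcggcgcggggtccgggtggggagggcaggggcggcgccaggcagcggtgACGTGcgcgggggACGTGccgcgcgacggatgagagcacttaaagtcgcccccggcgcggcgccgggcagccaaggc
Bnip3 (chr7:138909457-138909756, minus strand): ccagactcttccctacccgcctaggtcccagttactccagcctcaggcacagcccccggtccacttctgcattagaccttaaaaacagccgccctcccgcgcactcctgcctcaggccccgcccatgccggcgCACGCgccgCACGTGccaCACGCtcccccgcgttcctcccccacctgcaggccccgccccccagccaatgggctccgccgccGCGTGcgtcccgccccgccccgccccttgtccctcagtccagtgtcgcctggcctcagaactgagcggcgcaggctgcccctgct
Hk2 (chr6:82774405-82774704, minus strand): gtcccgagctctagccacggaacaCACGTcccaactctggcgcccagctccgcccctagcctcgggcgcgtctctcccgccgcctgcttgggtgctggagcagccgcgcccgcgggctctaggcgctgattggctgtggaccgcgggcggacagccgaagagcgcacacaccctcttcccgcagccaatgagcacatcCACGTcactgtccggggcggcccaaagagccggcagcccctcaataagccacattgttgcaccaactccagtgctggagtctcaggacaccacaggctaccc
Slc16a1 (chr3:104638414-104638713, plus strand): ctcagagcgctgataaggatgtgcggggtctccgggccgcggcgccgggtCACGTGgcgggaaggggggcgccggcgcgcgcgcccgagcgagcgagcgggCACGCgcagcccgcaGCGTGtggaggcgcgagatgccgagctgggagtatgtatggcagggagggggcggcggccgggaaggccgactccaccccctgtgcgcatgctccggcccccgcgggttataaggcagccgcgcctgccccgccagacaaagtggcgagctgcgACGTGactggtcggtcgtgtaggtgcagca
Egln3 (chr12:54203825-54204124, minus strand): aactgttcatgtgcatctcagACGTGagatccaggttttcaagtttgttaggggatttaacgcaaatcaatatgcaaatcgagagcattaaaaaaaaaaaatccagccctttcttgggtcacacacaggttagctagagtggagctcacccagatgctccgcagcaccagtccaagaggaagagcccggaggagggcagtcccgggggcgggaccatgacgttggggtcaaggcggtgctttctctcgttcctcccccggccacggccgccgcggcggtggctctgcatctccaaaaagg

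These few windows, picked for the responses seen here, cannot show whether promoters separate by response, and the other windows were not compared by response. The *Tpi1* window held none of the motifs, *Slc16a3* held 2 ACGTG matches, *Bnip3* held an E-box and 3 GCGTG matches, *Hk2* held 2 ACGTG matches, *Slc16a1* an E-box, 1 further ACGTG and 2 GCGTG matches, and *Egln3* 1 ACGTG match.

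Further genes of the same pathways came from lists by function. Of 12 further genes of sugar transport and glycolysis that passed the filter (of 19 listed), 0 were higher and 3 lower with IL-2 in resting cells (17.3% and 22.3% of all genes), 0 were higher and 4 lower with PMA/I in its presence (11.8% and 23.3%), 1 was higher and 9 lower with PMA/I in its absence (20.1% and 41.1%), and 1 was higher and 0 lower with IL-2 in stimulated cells (12.9% and 8.4%). *Bpgm*, which diverts a glycolytic intermediate to 2,3-bisphosphoglycerate, fell from 40.8 ± 24.4 TPM in TB IL-2nil to 10.2 ± 3.51 in TB IL-2 and 5.01 ± 0.62 in TB+ IL-2nil (-1.70, adjusted P = 0.0103, and -2.57, adjusted P = 0.000425). *Pgm2*, a phosphoglucomutase family gene, fell with PMA/I in the absence of IL-2 (-1.59, adjusted P = 0.0014). *Pgam2*, the muscle mutase, fell with IL-2 in resting cells (-1.05, adjusted P = 0.00439) where *Pgam1* rose, and with PMA/I in both states (-1.07, adjusted P = 0.00441, and -1.83, adjusted P = 5.09e-05). PMA/I in the absence of IL-2 also lowered *Pfkfb2* (-1.18, adjusted P = 0.000353), *Slc2a8* (-1.11, adjusted P = 0.00243) and *Slc2a6* (-1.06, adjusted P = 0.0432).

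Of 10 further genes of pyruvate entry that passed (of 11 listed), 5 were higher and 2 lower with IL-2 in resting cells (17.3% and 22.3% of all genes), 4 higher and 1 lower with it in stimulated cells (12.9% and 8.4%), 1 higher and 1 lower with PMA/I in the presence of IL-2 (11.8% and 23.3%), and 2 higher and 3 lower in its absence (20.1% and 41.1%). The kinase *Pdk2* fell with IL-2 from 7.39 ± 2.48 to 1.12 ± 0.673 TPM (-2.0, adjusted P = 0.00106), as *Pdk1* did, and with PMA/I in the absence of IL-2 to 0.882 ± 0.773 TPM (-2.19, adjusted P = 0.000193), and the kinase *Pdk3* rose from 9.17 ± 0.351 to 20.4 ± 2.38 TPM (1.07, adjusted P = 0.00048). The phosphatase *Pdp1*, which switches the complex on again, rose with IL-2 (1.13, adjusted P = 0.00221) and, in the absence of IL-2, with PMA/I from 2.78 ± 1.26 to 22.1 ± 2.71 TPM (2.66, adjusted P = 3.66e-06). *Pdpr*, a regulator of that phosphatase, fell with PMA/I in the absence of IL-2 (-1.72, adjusted P = 3.44e-05). *Pcx*, for pyruvate carboxylase, rose with IL-2 from 1.84 ± 0.884 to 10.6 ± 4.81 TPM (1.99, adjusted P = 0.00526). All means here are of 3 libraries with the SD.

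Of 7 further pentose phosphate genes that passed (of 8 listed), 1 was higher and 3 lower with IL-2 in resting cells (17.3% and 22.3% of all genes), 1 higher and 1 lower with it in stimulated cells (12.9% and 8.4%), 1 higher and 2 lower with PMA/I in the presence of IL-2 (11.8% and 23.3%), and 1 higher and 4 lower in its absence (20.1% and 41.1%). *H6pd*, the dehydrogenase of the endoplasmic reticulum, was lower with IL-2 (-1.08, adjusted P = 0.00467) and with PMA/I in both states (-1.99, adjusted P = 0.000133, and -2.07, adjusted P = 2.96e-05), against *G6pdx*, its cytosolic counterpart, which IL-2 raised. *Prps1*, which makes the nucleotide precursor PRPP from ribose phosphate, rose with PMA/I in the absence of IL-2 (1.44, adjusted P = 2.5e-05), while *Shpk* (-1.49, adjusted P = 4.45e-05) and *Tktl1* (-1.24, adjusted P = 0.000647) fell. *Tktl1*, a relative of *Tkt*, was also lower with IL-2 in resting cells (-1.21, adjusted P = 0.00198).

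Of 18 further hypoxia genes that passed (of 20 listed), 5 were higher and 4 lower with IL-2 in resting cells (17.3% and 22.3% of all genes), 3 higher and 5 lower with PMA/I in the presence of IL-2 (11.8% and 23.3%), 4 higher and 8 lower in its absence (20.1% and 41.1%), and 2 higher and 0 lower with IL-2 in stimulated cells (12.9% and 8.4%). The counts with PMA/I in the absence of IL-2 are near these shares. *Ndrg1*, a stress-induced HIF target, rose with PMA/I from 24.5 ± 17.8 to 228 ± 55.2 TPM with IL-2 (3.35, adjusted P = 9.72e-05) and from 10.3 ± 1.38 to 152 ± 27.8 TPM without it (3.76, adjusted P = 1.32e-05). *Vegfa*, for the angiogenic growth factor, rose as well (2.17, adjusted P = 0.0208, and 2.59, adjusted P = 0.00417), as did *Ero1l*, for an oxidase of the endoplasmic reticulum (1.08, adjusted P = 0.0237, and 1.99, adjusted P = 0.000312). *Ddit4*, an inhibitor of mTOR signalling, fell in both (-1.52, adjusted P = 0.0316, and -2.43, adjusted P = 0.00122). Without both doubtful libraries, *Vegfa* and *Ddit4* no longer passed in the presence of IL-2 (adjusted P = 0.0805 and 0.109), nor did *Bnip3l* and *Higd1a* with IL-2 in resting cells (adjusted P = 0.0525 and 0.0744). In the absence of IL-2, PMA/I lowered *Arnt*, the partner of HIF-1α (-1.46, adjusted P = 0.000299), and *Vhl*, for the ligase that degrades it (-1.63, adjusted P = 2.06e-05), and *Bnip3l*, the paralogue of *Bnip3* (-1.57, adjusted P = 0.00138). With IL-2 in resting cells *Bnip3l* fell (-1.08, adjusted P = 0.0196) where *Bnip3* rose, *Kdm3a* fell (-1.11, adjusted P = 0.00221), and *Ankrd37* (1.71, adjusted P = 0.00424), *Higd1a* (1.10, adjusted P = 0.0462) and *Ero1l* (1.11, adjusted P = 0.0189) rose. By the labels, of all these further genes *Pgm2* alone passed, with PMA/I in the absence of IL-2 (-1.75, adjusted P = 0.0272).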

How the data were processed

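RNA was extracted with Trizol, depleted of rRNA and made into directional libraries. Per the methods of the authors, Trimmomatic 0.32 trimmed the reads, HISAT2 2.1.0 placed them on mm9, and StringTie 1.3.3 gave levels of RefSeq genes, stated there as TPM. The deposited values were FPKM per gene name, with no counts, so depth is unknown. No intervals for counting error are given.

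FPKM were rescaled to the same sum in each library (TPM), genes that stayed at or under 1 TPM throughout were dropped, and libraries were scaled by the upper quartile. Log2(TPM + 1) was fitted with limma 3.58.1 (R 4.3.3) over the 4 groups with no block, and P-values were adjusted by Benjamini-Hochberg over all 12442 genes. The script was tested on simulated data. An adjusted P under 0.05, from both sides, was the call. The 2 libraries that differ from the published table were placed as in that table. Same-numbered libraries deviated together in 18 of 18 pairs (correlation of residuals 0.101 to 0.531), although the labels state no pairing, so a fit with the replicate number as a block was added and is given where it changes a call. Promoter windows came from RefSeq.

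Members and lists were chosen with earlier results of these data known. All 34 members were reported. Genes of further lists were named where the adjusted P was under 0.05 and the log2 difference over 1 in the resting IL-2 comparison or either PMA/I comparison. Alternatives changed the placement, scaling, filter, pseudocount, short RNAs, variance model and libraries left out.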

Additional observations from a re-analysis of the deposited data

Results flagged for a closer look

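The response to PMA/I differed between cells with and without IL-2 in 3 of the 34 genes by the interaction term (limma). The difference of responses was -3.01 for *Hk2* (95% confidence interval -4.31 to -1.70), -2.47 for *Slc16a1* (-3.7 to -1.24) and -2.03 for *Pgam1* (-2.82 to -1.23). In all 3 genes the response was larger without IL-2. Each passed with and without the replicate block (adjusted P = 0.0159, 0.0126 and 0.0153 with it), and 0 passed by the labels, without both doubtful libraries or with no scaling between libraries.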

How the results depend on the processing

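The number of the 34 genes past the adjusted P turned on the placement of the 2 doubtful libraries. By the labels it was 0 in all 5 comparisons. Without both libraries it was 7 for IL-2 in stimulated cells, against 13, and 0 for the interaction, against 3, with fewer libraries to estimate the spread. With no scaling between libraries the interaction count was also 0, and that for IL-2 in resting cells was 14, against 19. The cause was not tested. Leaving out each library in turn gave 16 to 20 genes for IL-2 in resting cells, 3 to 6 for PMA/I with IL-2, 15 to 19 for PMA/I without IL-2, 7 to 17 for IL-2 in stimulated cells and 0 to 4 for the interaction. It was 3 for PMA/I with IL-2 without TB IL-2 replicate 1 or TB+ IL-2 replicate 2, 7 for IL-2 in stimulated cells without TB+ IL-2 replicate 2, TB+ IL-2 replicate 3 or TB+ IL-2nil replicate 1, and 0 for the interaction without TB IL-2 replicate 2, TB IL-2nil replicate 2, TB+ IL-2 replicate 2 or TB+ IL-2 replicate 3. With the replicate block, in the same order, 23, 6, 24, 18 and 4 genes passed, and no call other than those given with the results changed. For the block and the left-out libraries the shares of all genes that passed were not counted, so these counts have no background beside them. For PMA/I without IL-2, *Tkt* turned to -0.15 by the labels and to -0.06 with no scaling, *Ldha* to -0.03 with quantile normalization and *Pdhb* to 0 with median of ratios. Among the differences of single genes under the alternatives, 3638 kept direction and side of the threshold, 209 lost the call, 59 gained it and 4 turned. A TPM value without its read count sets no limit of detection, so how depth bears on weakly expressed genes was not tested.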

Other observations

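The Krebs cycle oxidises the acetyl groups made from pyruvate. Of its 16 genes 9 were higher and 0 lower with IL-2 in resting cells (median log2 difference 0.64, and -0.13 over all genes, of which 17.3% were called higher and 22.3% lower), and 10 were higher and 0 lower in stimulated cells (median 0.75, and -0.04 over all genes, of which 12.9% were called higher and 8.4% lower). *Fh1*, for fumarase, rose with IL-2 in resting cells from 22.8 ± 1.5 to 59.7 ± 4.83 TPM (SD, n = 3; log2 difference 1.35, adjusted P = 0.00151, limma), and *Sdhb*, for the iron-sulphur subunit of succinate dehydrogenase, from 80.1 ± 6.55 to 166 ± 6.35 TPM (1.04, adjusted P = 0.000289). *Idh3a*, for the catalytic subunit of isocitrate dehydrogenase, rose with IL-2 (1.45, adjusted P = 0.000284) and with PMA/I in the absence of IL-2 (1.06, adjusted P = 0.000576). With PMA/I in the presence of IL-2, 0 of the 16 genes passed (1 at an unadjusted P under 0.05), and in its absence 2 were higher and 7 lower, near the 20.1% higher and 41.1% lower of all genes.

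Of 7 genes that hold sugar use back or run it in reverse, 4 passed the filter. With IL-2 in resting cells 0 were higher and 2 lower (17.3% and 22.3% of all genes), with PMA/I in the presence of IL-2 0 higher and 1 lower (11.8% and 23.3%), with PMA/I in its absence 1 higher and 2 lower (20.1% and 41.1%), and with IL-2 in stimulated cells 0 passed (1 at an unadjusted P under 0.05). *Txnip*, whose product removes glucose transporters from the cell surface, was at 621 ± 139 TPM in TB IL-2nil, 149 ± 25.3 in TB IL-2, 13.2 ± 11.6 in TB+ IL-2nil and 9.52 ± 6.06 in TB+ IL-2. It fell with IL-2 (-2.04, adjusted P = 0.0182, and 0.0615 without both doubtful libraries), and with PMA/I in the presence of IL-2 (-4.07, adjusted P = 0.000472) and in its absence (-5.74, adjusted P = 1.53e-05). Its relative *Arrdc4* fell with IL-2 (-1.32, adjusted P = 0.00943), and *Pck2*, for the mitochondrial enzyme that makes phosphoenolpyruvate, fell with PMA/I in the absence of IL-2 (-1.57, adjusted P = 0.00274). By the labels 0 of these 4 genes passed in any comparison, and *Sdha* alone of the Krebs cycle did, with PMA/I in the absence of IL-2 (-0.94, adjusted P = 0.0328).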
